A study of Mus musculus with 8 samples.

Results

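The earliest response of TTE3 cells to bisphenol A was read by comparing arrays taken after 3 h of exposure with arrays taken at 0 h. TTE3 is a mouse Sertoli cell line that comes from animals carrying a temperature-sensitive large T antigen of SV40, and Sertoli cells are the somatic nurse cells of the seminiferous tubule. Bisphenol A (BPA), a building block of polycarbonate and epoxy resins and a weak estrogen, was given at 0.2 mM. The comparison used 4 one-colour Affymetrix 430A arrays, 2 at 0 h and 2 at 3 h, and the 2 arrays each at 6 h and 12 h of the same exposure helped to estimate the spread. All groups are the same line without a genetic change between them, and the 0 h cells stand for cells at the start of exposure. No array of untreated cells kept for 3 h was analysed here, so BPA and 3 h in culture cannot be told apart. It is not stated whether both arrays of a time come from separate cultures, so p-values measure the spread between these arrays, which may be technical, and the precision of each value is limited by having so few arrays.

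Of 22690 probe sets, those with 1 gene symbol gave 12393 genes, each read by the brightest of its probe sets on average. Of these, 8675 passed a filter on low signals and were tested, and 3718 were removed. Changes are differences of mean log2(signal + 7.9) with the standard error (SE) of the linear model, n = 2 arrays per time. A gene is called where limma's moderated test gave a Benjamini-Hochberg adjusted p under 0.05 over all 8675 genes. Signals are in arbitrary units and are not compared between genes, since each probe set binds with its own strength. In whole cultures, fewer cells of a kind and less RNA per cell cannot be told apart.

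The label was checked against 13 Sertoli cell markers, 12 of which were measured and 8 of which passed the filter. Clu, Kitl, Gata4, Inhbb and Wt1 were among those that passed, with signals of 7747 and 7554 for Clu and 174 and 153 for Wt1 at 0 h. The defining markers Amh, Fshr, Dhh and Cldn11 were removed by the filter, with no 0 h signal above 57.9. The summed signal of the 12 markers, most of it from Clu, was 10335 to 10614 at 0 h and 9556 to 10136 at 3 h. Of 34 measured markers of Leydig, germ, peritubular, macrophage and endothelial cells 1, 2, 3, 4 and 1 passed the filter. Only those could be called, and 0 were, against 12.1% of all genes tested. Summed signals of each kind are set side by side only between times, since they rest on different probe sets. The sums of germ, peritubular and endothelial markers were higher at 3 h (321 to 329, 372 to 478 and 225 to 239) than at 0 h (252 to 290, 238 to 365 and 161 to 196). The sum of Leydig markers was lower at 3 h (369 to 382) than at 0 h (470 on both arrays), and that of macrophage markers overlapped (687 to 780 and 722 to 736). All these sums include markers that the filter removed for low signal, and some rest on few genes. Most of the Leydig sum was Star (456 and 417 at 0 h). In the peritubular sum Acta2, which was not called, read 24.0 and 109.9 at 0 h and 95.3 and 233.6 at 3 h. The sums are thus no measure of other cells, whose part in the results was not tested.

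Cells answer many stimuli in waves. Immediate early genes such as Fos and Egr1 are switched on by kinases already present in the cell, and they encode transcription factors and feedback inhibitors that shape the next wave. The integrated stress response acts in parallel: phosphorylation of the initiation factor eIF2 slows protein synthesis while it favours translation of ATF4, which then activates stress genes.

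After 3 h, 1048 of the 8675 genes were called (12.1%), 742 higher (8.55%) and 306 lower (3.53%). Rises were also the larger changes. At least 2-fold, 212 genes rose and 29 fell and at least 4-fold, 35 rose. No fall of 4-fold was called by limma, and 0 genes had one at an unadjusted p under 0.05. Over all genes tested the median change was 0.06, and 90% of the changes lay between -0.50 and 0.83. In all 1048 called genes both 3 h arrays lay beyond both 0 h arrays, as they did in 58% of all genes tested. Where arrays of called genes are said below not to overlap, this describes the values and adds no evidence to the call.

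How small rises and falls balanced moved with signal and with scaling. From the dimmest to the brightest of 4 equal groups of genes the median change went from 0.17 through 0.11 and 0.05 to -0.02. With every array brought to 1 median, 41.9% of calls were higher in place of 70.8%, and the median change of all genes was -0.07. Median signals of the arrays as deposited were 150.9 and 155.1 at 0 h and 165.6 and 170.1 at 3 h. Leaving out any one of the 4 arrays left 453 to 551 calls. Calls named from here on held in all 15 alternative analyses, each left-out array included, wherever the gene was tested, unless an exception is given: this was so for 143 of the 212 genes that rose at least 2-fold and for 18 of the 29 that fell as much.

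**Figure D1:**
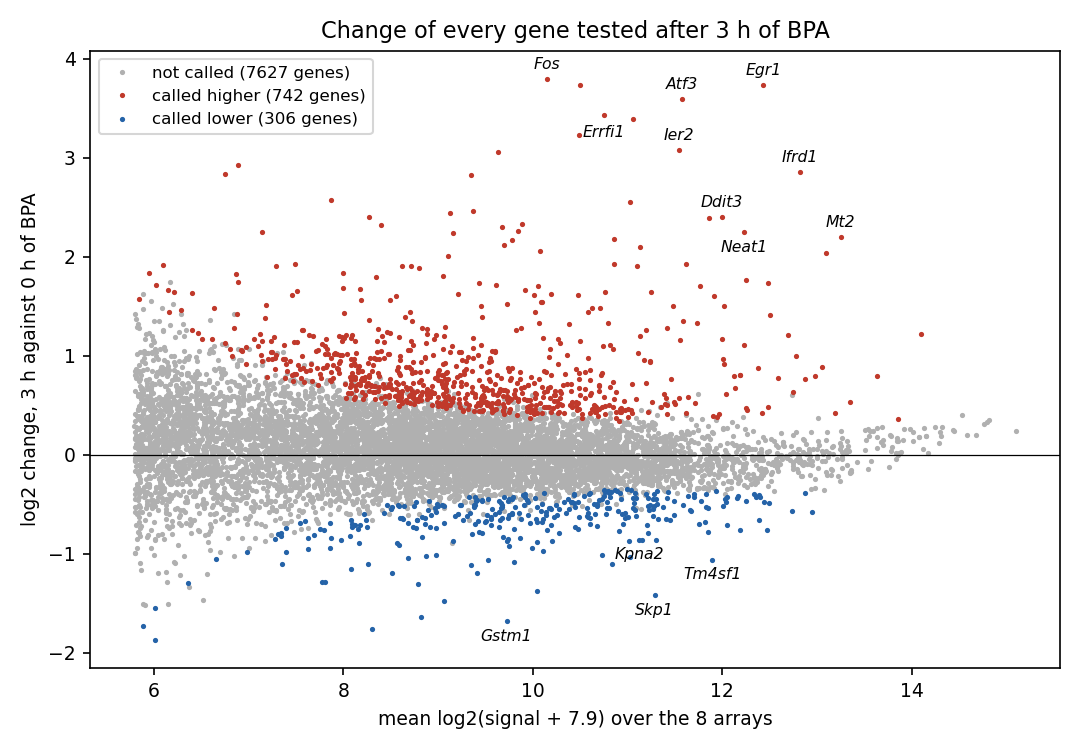
Log2 change from 0 h to 3 h of BPA (vertical) against the mean log2 signal over 8 arrays (horizontal), 1 point per gene tested, for 742 genes called higher (red), 306 called lower (blue) and the rest (grey). Rises reach 3.80 (Fos), while among the brighter genes no fall goes beyond that of Gstm1, -1.68.

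In the lists below for which no member fell, 0 members were lower at an unadjusted p under 0.05 as well, except for 1 gene each in the heat shock, translation initiation and Sertoli lists and 2 in the list of replication and mitosis. At that p, 0 members of the glutathione S-transferase, surface protein and respiratory chain lists were higher, and 1 proteasome gene was. All 52 lists were drawn up with earlier results of these data known, so their directions and their order by median are not independent evidence. Counts of each list are to be read beside the shares over all genes tested, 8.55% higher and 3.53% lower.

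Among the lists, that of AP-1 genes and that of EGR, IER and NR4A genes had the highest median changes. Of 12 FOS, JUN and small MAF genes tested 9 rose and none fell, with a median change of 1.32 against 0.06 over all genes. AP-1 is a dimer of a FOS and a JUN protein. Fos had signals of 184 and 163 at 0 h and 2440.4 and 2596 at 3 h, a change of 3.80 ± 0.12 (adjusted p = 2.63e-10), or 13.9-fold. Its dimer partners followed at lower factors. Junb went from 219.7 and 133 to 1046 and 926 (2.47 ± 0.23), and Jun from 1206 and 1376 to 5159.9 and 4682 (1.93 ± 0.12). In each case both 3 h arrays lay above both 0 h arrays. Fosl1 (1.91), Fosl2 (1.62) and Maff, a small MAF protein gene (2.01), rose as well. Fosb (0.71), Jund (0.04) and Batf3 (-0.14) were not called.

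Among 15 EGR, IER and NR4A genes, 10 rose and none fell, with a median of 1.04. Egr1, a zinc finger factor of growth and stress signals, had the signals 995 and 1102 at 0 h and 14135 and 13968 at 3 h. That is a change of 3.74 ± 0.15 (adjusted p = 2.7e-09), with the arrays of each time close together and far apart between times. Egr2 rose from 41 and 24.3 to 252 and 345 (2.93 ± 0.31). Both 0 h signals lay under 47.6, the lowest mean signal the filter kept, so Egr2 was tested only through its arrays after 0 h. The size of its change rests on a 0 h level near the background and on the offset of 7.9. Nab2, the corepressor that binds EGR proteins, rose from 461 and 409 to 861 and 939 (1.04 ± 0.18). Egr3 (-0.12) was not called, and Egr4 was removed by the filter. Nr4a1, an orphan nuclear receptor, went from 227 and 265 to 1834 and 1734 (2.82 ± 0.14), while Nr4a2 had a change of 0.17 and was not called. Ier2, a nuclear protein gene of this early wave, rose from 835 and 729 to 6357 and 6969 (3.08 ± 0.15). Ifrd1, a coregulator induced by growth factors and stress, reached 13335 and 10245 from 1645 and 1561 (2.86 ± 0.18), with its 3 h arrays further apart than its 0 h arrays.

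Of 12 Kruppel-like and Sp factors 4 rose, with a median of 0.31. Klf10, a target of TGF-beta signals, rose from 278 and 276 to 2941 and 2424 (3.23 ± 0.13) and Klf6 from 704 and 778 to 2305 and 2567 (1.71 ± 0.21). The call of Klf5 (1.18) was lost with a probe set of one transcript preferred (adjusted p = 0.108), and that of Klf4 (0.73) without the intensity trend (adjusted p = 0.0785), without 0 h replicate 1 (0.125) and without 3 h replicate 1 (0.0734). Among 44 other early transcription regulators 15 rose and 1 fell, with a median of 0.45; without 3 h replicate 1 the count was 8 higher. Nfil3 and Bhlhe40, repressors tied to the circadian clock, rose from 249.9 and 274 to 1518 and 1196 and from 299 and 309 to 1505 and 1549. Their changes were 2.33 ± 0.13 and 2.30 ± 0.13, without overlap between the times. Id1 and Id3, which block basic helix-loop-helix factors, rose by 1.93 ± 0.16 and 1.73 ± 0.14, and Snai2, a zinc finger repressor, by 1.61 ± 0.26. Creb3 fell by 0.34, a call lost under quantile normalization (adjusted p = 0.0864), without the intensity trend (0.109), with a probe set of one transcript preferred (0.236), with the mean of all its probe sets (0.335), without 0 h replicate 1 (0.208), without 0 h replicate 2 (0.192), without 3 h replicate 1 (0.13) and without 3 h replicate 2 (0.225).

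**Figure D2:**
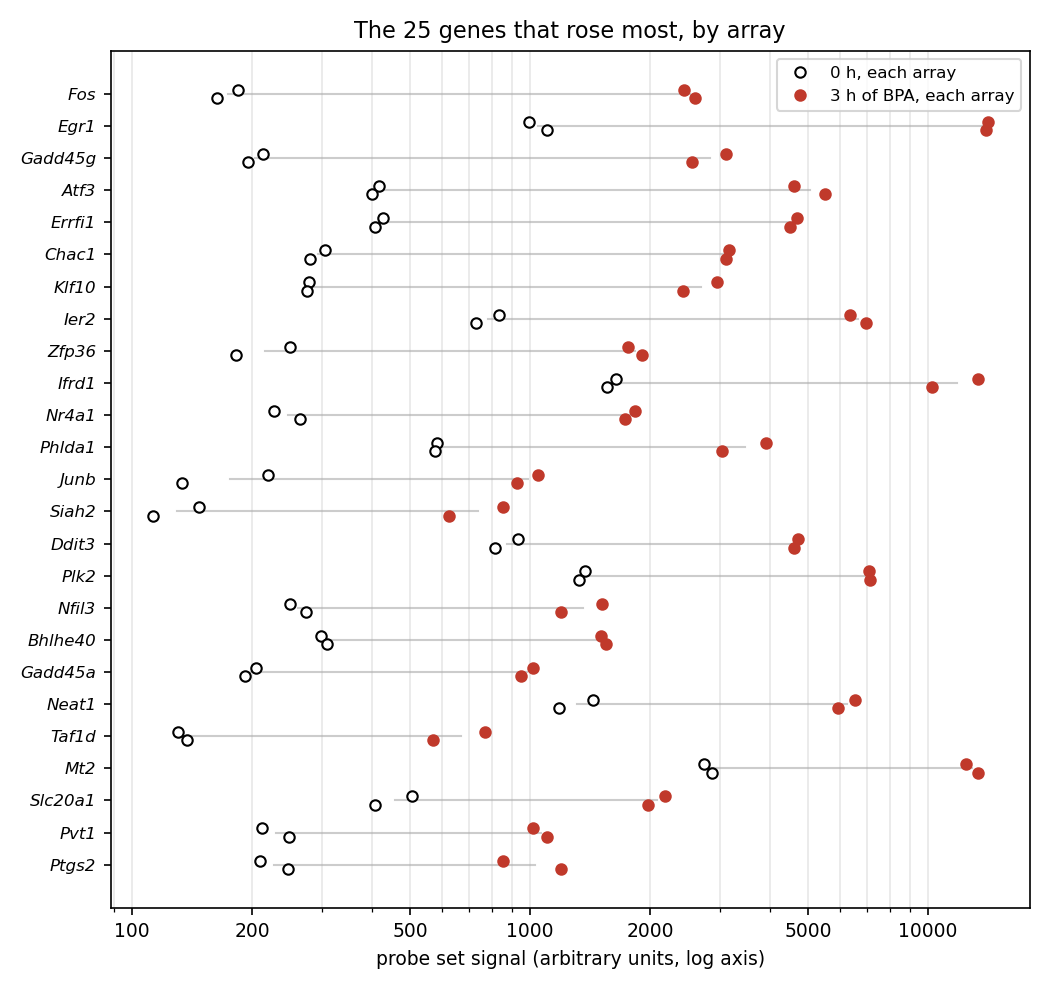
Signal of each array (horizontal, log axis, arbitrary units) at 0 h (open) and after 3 h of BPA (red) for the 25 genes that rose most among called genes above the median signal; grey lines join the means of 2 arrays. In every row both 3 h arrays lie above both 0 h arrays, as the choice of these genes required.

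Feedback inhibitors of growth factor signalling rose beside the factors. Of 15 ligands, receptors and inhibitors of receptor tyrosine kinases 7 rose and none fell, with a median of 0.42, and each left-out array kept the count at 7. Errfi1, which binds and silences the EGF receptor, went from 428 and 408 to 4681 and 4496, a change of 3.43 ± 0.10 or 10.8-fold (adjusted p = 2.63e-10). Phlda1, a pleckstrin homology domain protein gene, went from 584 and 577 to 3905 and 3028 (2.55 ± 0.15). Spry1, a Sprouty inhibitor of the RAS pathway, rose by 1.28 ± 0.17. On the receptor's own side, the ligand gene Hbegf rose from 195 and 211 to 571 and 524 (1.40 ± 0.15) and Egfr from 643 and 676 to 1206 and 1167 (0.84 ± 0.12). Transcripts of a ligand (Hbegf), its receptor (Egfr) and an inhibitor of that receptor (Errfi1) were thus higher at 3 h together. The calls of Spry2 (1.39) and Lrig1 (1.17), both inhibitors, were lost with the mean of all its probe sets (adjusted p = 0.163) and with a probe set of one transcript preferred (adjusted p = 0.866).

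Dual-specificity phosphatases, which switch off MAP kinases, had 4 of 14 members higher and none lower, with a median of 0.38. Dusp6, a cytoplasmic phosphatase of ERK, rose from 2159 and 2456 to 5518 and 6256 (1.35 ± 0.11) and Dusp16, which acts on JNK and p38, by 0.71 ± 0.11. Dusp1, the best known early phosphatase gene, had a change of 0.29 and was not called.

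Transcripts of 7 of 16 YAP and TEAD target or pathway genes rose and none fell, at a median of 0.05. The list divides: the 7 rose by 0.83 or more, and the 9 others had changes from -0.20 to 0.05. Ccn1 and Ccn2, secreted matricellular proteins, rose from 2893 and 2840.5 to 10503 and 9046 and from 1959 and 1596 to 5756 and 5343. The changes were 1.76 ± 0.12 and 1.65 ± 0.13. Ankrd1, a nuclear cofactor, rose from 762 and 719.9 to 2586 and 2029.6 (1.62 ± 0.15), and Amotl2, an angiomotin that restrains YAP, by 0.83 ± 0.12. The transducers themselves, Yap1 (-0.20) and Wwtr1 (-0.20), were not called. The call of Tead1 (1.43) was lost without 3 h replicate 1 (adjusted p = 0.0521).

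Regulators of mRNA decay moved in both directions. Of 21 tested 6 rose and 2 fell, with a median of 0.14. Zfp36, which binds AU-rich elements and speeds decay, rose from 249 and 182 to 1760.5 and 1909 (3.06 ± 0.18), and its relative Zfp36l1 from 1056 and 1032 to 2106 and 2405 (1.10 ± 0.16). Noct, a nocturnin gene, rose by 1.62 ± 0.12 and Btg2, an antiproliferative factor that recruits the CCR4-NOT deadenylase, by 1.33 ± 0.12. The falls were those of Tnrc6a and Tnrc6c, scaffold proteins of microRNA silencing. The call of Tnrc6a (-1.06) was lost without the intensity trend (adjusted p = 0.107), without 0 h replicate 1 (0.117), without 0 h replicate 2 (0.0778) and without 3 h replicate 2 (0.109), and that of Tnrc6c (-0.94) without 0 h replicate 1 (adjusted p = 0.0706), without 0 h replicate 2 (0.0659) and without 3 h replicate 2 (0.0655). Their relative Tnrc6b had a change of -0.10 and was not called.

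The stress branch that runs through ATF4 was raised at its regulators. Of 22 ATF4 and CHOP regulators and effectors tested 11 rose and none fell, with a median of 0.81, and without each array in turn 10 or 11 rose. Atf4 itself, already bright at 0 h, went from 3023 and 3038 to 13118 and 11887 (2.04 ± 0.11). Atf3, a partner and repressor in the same network, went from 417 and 401 to 4607 and 5501 (3.60 ± 0.11, 12.1-fold). Ddit3, which encodes CHOP, went from 934 and 817 to 4716 and 4605 (2.40 ± 0.11). In all 3 the times did not overlap and the arrays of a time differed by far less than the times.

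Effectors of this branch were raised too. Chac1, which degrades glutathione, went from 305 and 279.7 to 3162 and 3107 (3.39 ± 0.13) and Ddit4, an inhibitor of mTORC1, from 989.9 and 793 to 3878 and 3779.8 (2.10 ± 0.12). Trib3, a pseudokinase that restrains ATF4, went from 206 and 211 to 675 and 685 (1.67 ± 0.12). Ppp1r15a, the GADD34 subunit that brings phosphatase to eIF2, went from 383 and 354 to 1134 and 1046 (1.54 ± 0.16). The CCAAT-binding factor gene Cebpb (1.26 ± 0.12), the small chromatin protein gene Nupr1 (1.26 ± 0.12) and Herpud1, a factor of ER-associated degradation (0.87 ± 0.15), rose less. Atf5 (-0.30), Sesn2 (0.14) and Vldlr (0.20) were not called.

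Lists further down the same branch had shares of called genes on both sides of the 12.1% of all genes tested: 18.8% of amino acid and one-carbon enzymes, 14.3% of amino acid transporters, 4.76% of the tRNA synthetase list and 3.57% of translation initiation genes. Of 16 amino acid and one-carbon enzymes 2 rose and 1 fell, and none of these 3 calls held in all alternatives. Among 14 amino acid transporters Slc3a2, the heavy chain shared by several transporters, rose by 1.17 ± 0.12, from 1533 and 1686 to 3711 and 3527. Its partner Slc7a5 (0.56) was called too, and that call was lost under quantile normalization (adjusted p = 0.0566), at a common median (0.0674), without the intensity trend (0.0916), without 0 h replicate 1 (0.227) and without 3 h replicate 1 (0.201). No tRNA synthetase gene was called among the 21 genes of that list: its single call was Xpot, the exporter of tRNA, which fell from 1187 and 1223 to 720.4 and 749 (-0.71 ± 0.14). Of 28 translation initiation genes only Eif4a2, a helicase that unwinds 5' leaders, was called, with a rise from 1429 and 1476 to 3231 and 3279 (1.16 ± 0.12).

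Chaperone lists of the ER and the cytosol had 12.1% and 7.69% of their genes called, against 12.1% of all genes. Of 33 ER folding and degradation genes 2 rose and 2 fell, with a median of -0.08, and of 26 heat shock genes 2 rose and none fell, with a median of 0.02. The calls that held were Ube2g2, an ER degradation enzyme (0.62 ± 0.12), and Hsph1, a cytosolic chaperone (0.71 ± 0.13). Hspa5, the ER chaperone BiP, had signals of 7256 and 7389 at 0 h and 7652 and 7469.5 at 3 h (0.05, not called).

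To show the DNA in front of these genes, promoter windows of 300 bases were taken from RefSeq (build GRCm38.p6; 250 bases before the start to 50 after it), and 7098 of the 8675 genes had at least 1. The C/EBP-ATF element, searched as TGATGNAA on both strands, lay in a window of 183 of these 7098 genes (2.58%) and in 3.97% of all 32851 windows. It lay in those of 5 of the 11 called ATF4 and CHOP genes with a window (45.5%), a list drawn up with earlier results known. Among all genes with a window it lay in 28 of 594 called higher (4.71%) and 8 of 252 called lower (3.17%). For genes called at least 2-fold higher it was 11 of 166 (6.63%). These sets overlap, since Atf3, Chac1, Trib3 and Nupr1 are counted in the list and among the genes at least 2-fold higher. The 5 windows are shown because they front genes that rose together, with the matching letters (TTNCATCA on the opposite strand) in capitals, read 5′ to 3′ on the gene's strand. Atf3 lies at chr1:191183284-191183583 (minus strand), Chac1 at chr2:119350992-119351291 (plus), Trib3 at chr2:152344011-152344310 (minus), Nupr1 at chr7:126625421-126625720 (minus) and Herpud1 at chr8:94386179-94386478 (plus).
Atf3: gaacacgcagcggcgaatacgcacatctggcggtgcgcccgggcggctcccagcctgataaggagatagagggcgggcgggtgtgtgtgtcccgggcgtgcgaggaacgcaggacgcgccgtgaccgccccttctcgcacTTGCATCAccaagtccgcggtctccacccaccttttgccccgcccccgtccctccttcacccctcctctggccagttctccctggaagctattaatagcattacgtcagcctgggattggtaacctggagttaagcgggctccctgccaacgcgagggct
Chac1: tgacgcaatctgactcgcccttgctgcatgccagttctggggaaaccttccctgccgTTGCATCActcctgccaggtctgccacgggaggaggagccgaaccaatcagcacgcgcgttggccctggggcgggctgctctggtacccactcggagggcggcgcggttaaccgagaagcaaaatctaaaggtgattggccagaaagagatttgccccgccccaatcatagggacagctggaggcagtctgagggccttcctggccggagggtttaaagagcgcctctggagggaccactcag
Trib3: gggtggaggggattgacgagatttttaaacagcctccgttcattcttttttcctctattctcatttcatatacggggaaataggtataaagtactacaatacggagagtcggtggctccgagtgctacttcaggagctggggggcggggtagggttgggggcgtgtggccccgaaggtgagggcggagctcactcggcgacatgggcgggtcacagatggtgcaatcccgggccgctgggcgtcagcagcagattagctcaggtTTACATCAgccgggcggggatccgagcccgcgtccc
Nupr1: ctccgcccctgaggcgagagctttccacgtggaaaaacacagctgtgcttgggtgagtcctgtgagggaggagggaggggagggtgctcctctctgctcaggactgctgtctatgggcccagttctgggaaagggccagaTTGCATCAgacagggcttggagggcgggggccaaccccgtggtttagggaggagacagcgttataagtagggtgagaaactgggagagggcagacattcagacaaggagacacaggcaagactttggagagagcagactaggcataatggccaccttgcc
Herpud1: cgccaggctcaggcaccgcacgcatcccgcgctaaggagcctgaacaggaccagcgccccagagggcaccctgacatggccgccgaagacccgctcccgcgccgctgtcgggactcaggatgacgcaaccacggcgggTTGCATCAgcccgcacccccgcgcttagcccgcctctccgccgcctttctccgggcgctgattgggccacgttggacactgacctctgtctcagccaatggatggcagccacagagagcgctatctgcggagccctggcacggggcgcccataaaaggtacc
The match spans bases -110 to -103 from the start in Atf3 and in Nupr1 and -112 to -105 in Herpud1. It spans -193 to -186 in Chac1 and 14 to 21 after the start in Trib3. In 4 of the 5 its letters are the same, TTGCATCA, and in Trib3 they are TTACATCA. A match describes letters and is not evidence of binding.

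The cyclic AMP response element, searched as TGACGTCA on both strands, lay in a window of 3.61% of the 7098 genes and in 1.79% of all windows. Among genes with a window it lay in 38 of 594 called higher (6.40%) and in 10 of 252 called lower (3.97%). Errfi1, the EGF receptor inhibitor described above, has 2 windows, 1 of them with a full match at -51 to -44 (chr4:150854820-150855119, plus strand), shown here with the match in capitals.
Errfi1: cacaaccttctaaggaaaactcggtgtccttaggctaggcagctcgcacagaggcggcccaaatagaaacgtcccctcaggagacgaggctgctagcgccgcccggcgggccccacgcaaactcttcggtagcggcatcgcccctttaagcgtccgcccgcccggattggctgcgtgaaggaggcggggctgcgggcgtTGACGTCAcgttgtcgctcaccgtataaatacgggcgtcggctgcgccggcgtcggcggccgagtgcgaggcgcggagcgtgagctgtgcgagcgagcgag

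Growth arrest genes rose in part. Of 15 GADD45, CDK inhibitor and growth arrest genes 6 rose and 1 fell, with a median of 0.15. All 3 GADD45 genes, whose small proteins bind stress kinases and cell cycle regulators, rose. Gadd45g went from 213 and 195 to 3112 and 2544 (3.74 ± 0.12), Gadd45a from 205 and 192 to 1019 and 948 (2.26 ± 0.12) and Gadd45b from 1245 and 1197 to 3883 and 4110.5 (1.70 ± 0.12). Among CDK inhibitors, Cdkn2b (p15) rose by 1.11 ± 0.11 and Cdkn2c (p18) fell by 0.64 ± 0.12, from 1693 and 1813 to 1154 and 1083. The call of Cdkn1a (0.48), p21, was lost at a common median (adjusted p = 0.081), without the intensity trend (0.105), without 0 h replicate 1 (0.217), without 3 h replicate 1 (0.0747) and without 3 h replicate 2 (0.151).

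Of 25 p53 pathway genes 10 rose and 1 fell, with a median of 0.34; without 0 h replicate 1 the count of rises was 5. Plk2, a polo-like kinase, went from 1376 and 1328 to 7085 and 7133 (2.39 ± 0.13) and Plk3 by 1.93 ± 0.20. Mdm2, the ligase that degrades p53, went from 1687 and 1644 to 5259.6 and 4879.9 (1.60 ± 0.11). The other genes of this list that held, Ddit4 and Btg2, belong to the stress and mRNA decay lists as well. Zmat3 fell by 0.47, a call lost without the intensity trend (adjusted p = 0.081), without 0 h replicate 1 (0.154), without 0 h replicate 2 (0.148), without 3 h replicate 1 (0.0922) and without 3 h replicate 2 (0.163). Large T antigen binds p53. Whether its temperature-sensitive form was active in these cultures was not tested, so the line may be a limited model for this pathway.

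Genes of the cell cycle engine were called as often as all genes (12.1%) for cyclins, CDKs and E2Fs, and at a share of 2.38% for replication and mitosis. Of 42 replication and mitosis genes 1 was called, Cdc6, a loader of the replicative helicase (0.58), and that call was lost at a common median (adjusted p = 0.0629), without the intensity trend (0.0927), without 0 h replicate 1 (0.107), without 0 h replicate 2 (0.131), without 3 h replicate 1 (0.0602) and without 3 h replicate 2 (0.146). Of 33 cyclin, CDK and E2F genes 2 rose and 2 fell. Ccnl1, a cyclin that works in splicing and transcription, rose from 803 and 681 to 2340 and 1839.7 (1.48 ± 0.13), and the 3 other calls, Ccnt2, Ccnd2 and Ccne2, were each lost when 1 array was left out. Myc, a driver of growth, rose from 928 and 977 to 3743 and 3445 (1.91 ± 0.10). Its target Odc1, the first enzyme of polyamine synthesis, rose from 1122 and 1142 to 2762 and 2969.9 (1.33 ± 0.11). Azin1, which protects that enzyme, rose by 0.81 ± 0.12, and Sat1, which acetylates polyamines for export, fell by 0.70 ± 0.12, from 2276 and 1834 to 1228 and 1283.

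Signals of inflammation rose in part. Of 20 NF-kB pathway genes 7 rose and none fell (35.0% called, against 12.1% of all genes), with a median of 0.36. Without replicate 2 of either time the count was 4. Rel, an NF-kB subunit, went from 77.8 and 68.9 to 416 and 379 (2.32 ± 0.15), Tnfaip3, the A20 inhibitor of the pathway, from 129.6 and 136 to 422 and 548 (1.80 ± 0.20). Ptgs2, the prostaglandin synthase COX-2, went from 209 and 246 to 853 and 1198 (2.12 ± 0.18). Of 23 chemokine and cytokine genes 4 rose and 1 fell (21.7% called), and 16 more were removed by the filter. Ccl7 and Ccl2, attractants of monocytes, rose from 95.4 and 38.1 to 331 and 383 (2.40 ± 0.28) and from 464 and 374 to 942 and 801 (1.05 ± 0.14). The Ccl7 signal of 38.1 lay under 47.6, the lowest mean signal the filter kept. Lif, a cytokine that Sertoli cells secrete, rose from 139.5 and 79.5 to 413 and 384 (1.84 ± 0.23), and Cxcl12, a homing signal for stem cells, fell from 4039.6 and 4213 to 2479 and 2846 (-0.63 ± 0.11). In the STAT and IRF list 4 of 24 rose and 1 fell (20.8% called). Irf1 (1.07 ± 0.14) and Stat2 (1.18 ± 0.18) held, while interferon targets such as Ifit3 (0.21) and Oasl2 (-0.04) were not called. For death genes, of 25 BCL2 and caspase genes 2 rose and 1 fell (12.0%, against 12.1% of all genes). None of these calls held in all alternatives.

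Genes that handle metals and foreign compounds went different ways. Mt2 and Mt1, the metallothioneins that bind zinc and other metals, had signals of 2741 and 2865 and of 9299.5 and 8274 at 0 h. At 3 h they were 12474 and 13367 and 20342 and 20437, rises of 2.20 ± 0.11 and 1.22 ± 0.13 with no overlap. The probe set of Mt1 may bind related transcripts as well. The zinc exporter Slc30a1 (0.13) and the metal sensor Mtf1 (-0.18) were not called. The promoters of Mt2 and Mt1, near each other on chromosome 8, are shown because metal response elements are the known control of these genes. The element was searched as TGCACNC or TGCGCNC on both strands, and so short a motif lay in a window of 41.1% of genes tested and in 25.7% of all windows. Mt2 (chr8:94172368-94172667, plus strand) had 4 matches and Mt1 (chr8:94178839-94179138, plus strand) had 3, in capitals below.
Mt2: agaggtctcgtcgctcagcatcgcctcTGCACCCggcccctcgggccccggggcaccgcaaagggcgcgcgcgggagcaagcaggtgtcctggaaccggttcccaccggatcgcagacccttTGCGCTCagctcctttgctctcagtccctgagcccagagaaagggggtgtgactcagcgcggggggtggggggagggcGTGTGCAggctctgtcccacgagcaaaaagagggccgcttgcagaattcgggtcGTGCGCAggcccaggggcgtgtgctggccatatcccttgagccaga
Mt1: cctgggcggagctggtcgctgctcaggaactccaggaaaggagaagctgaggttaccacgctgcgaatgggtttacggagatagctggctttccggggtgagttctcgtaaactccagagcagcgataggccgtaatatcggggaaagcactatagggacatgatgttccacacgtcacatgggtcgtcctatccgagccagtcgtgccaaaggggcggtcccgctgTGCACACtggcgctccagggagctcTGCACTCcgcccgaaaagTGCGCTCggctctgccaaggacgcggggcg

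Glutathione S-transferases, which couple glutathione to foreign compounds, fell or were not called: of 16 tested none rose and 3 fell, with a median of -0.38. Gstm1 went from 2501 and 3109 to 889 and 839.6 (-1.68 ± 0.13, adjusted p = 2.24e-06). Its probe set can bind related Gstm transcripts, but all 4 probe sets of Gstm1 read lower signals at 3 h, with changes of -1.88 to -0.89. Gstp1 fell from 7383 and 7681 to 4359 and 4541 (-0.76 ± 0.11). The call of Mgst1 (-0.75) was lost with the mean of all its probe sets (adjusted p = 0.945). Of 28 NRF2 targets, the usual antioxidant programme, 3 rose and 1 fell, with a median of 0.00. That is 14.3% called, against 12.1% of all genes. Osgin1, an oxidative stress growth inhibitor, rose by 1.48 ± 0.11, and Ephx1, an epoxide hydrolase, fell from 3284 and 3404 to 2026 and 1901 (-0.77 ± 0.11). Hmox1 (0.03), Gclm (0.23), Srxn1 (0.18) and Nqo1 (-0.56) were not called.

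In the aryl hydrocarbon receptor list Tiparp, an ADP-ribosylating repressor of that receptor, rose from 2491 and 2535 to 6154 and 7262 (1.41 ± 0.12). Its other 2 probe sets gave 1.17 each. The aldo-keto reductase genes Akr1cl and Akr1b8 fell from 1401 and 1429 to 552 and 458 (-1.48 ± 0.14) and from 2034 and 2202 to 1384 and 1355 (-0.62 ± 0.11). The classic receptor targets Cyp1a1, Cyp1a2 and Cyp1b1 were removed by the filter. So were both estrogen receptor genes: Esr1 had signals of 11.1 and 39.1 at 0 h and 27.6 and 33.5 at 3 h, and Esr2 32.3 and 14.4 and 7.5 and 8.3. Of 25 tested genes of the nuclear receptor list 2 were called (8.0%, against 12.1% of all genes), and neither call held in all alternatives. They were Nr1d1 and Pgrmc2, the latter a membrane protein gene and not a nuclear receptor. Nr4a1, given above with the early genes, is not in this list.

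Sterol synthesis genes rose by modest amounts. Of 30 cholesterol and fatty acid genes 17 rose and none fell, with a median of 0.47, and 14 rose at a common median. Without 0 h replicate 1 or 3 h replicate 2 the count was 9 or 10. From the start of the pathway, Hmgcs1, which makes HMG-CoA, went from 7841 and 8145 to 12948 and 14934 (0.80 ± 0.13). Pmvk and Mvd, kinase and decarboxylase of mevalonate, rose by 1.04 ± 0.17 and 1.15 ± 0.14. Further on, Lss (0.95 ± 0.12), Cyp51 (0.99 ± 0.10) and Dhcr7 (1.17 ± 0.15) form and finish the sterol rings. Stard4, a sterol carrier, went from 1010.4 and 1082 to 2520.2 and 2301 (1.20 ± 0.12) and Fasn, fatty acid synthase, from 3555 and 3584 to 6395 and 5825 (0.77 ± 0.11). The regulators Srebf1 (0.12), Srebf2 (0.20) and Scap (0.17) were not called. CCAAT boxes, which bind the NF-Y partner of SREBP, were in a window of all 13 called genes of this list with a window, against 43.4% of genes tested and 37.4% of all windows. The searches for this box and for the metal response element were added after the values were seen. The sterol element, a site of SREBP itself, had no match in these 13 genes, and it was matched in 0.127% of genes tested and 0.125% of all windows. With the letters searched matched so rarely, no match was likely in 13 genes, so its absence does not tell whether SREBP sites are there. The window of Hmgcs1 (chr13:119690101-119690400, plus strand) is shown as the entry gene of the pathway, with its 4 CCAAT matches (ATTGG on the strand shown) in capitals.
Hmgcs1: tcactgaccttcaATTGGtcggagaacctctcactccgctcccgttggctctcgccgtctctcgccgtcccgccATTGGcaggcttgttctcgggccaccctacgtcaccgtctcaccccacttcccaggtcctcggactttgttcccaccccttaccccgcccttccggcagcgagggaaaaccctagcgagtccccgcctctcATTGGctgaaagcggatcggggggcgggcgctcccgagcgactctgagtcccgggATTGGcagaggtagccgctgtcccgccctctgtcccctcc

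**Figure D3:**
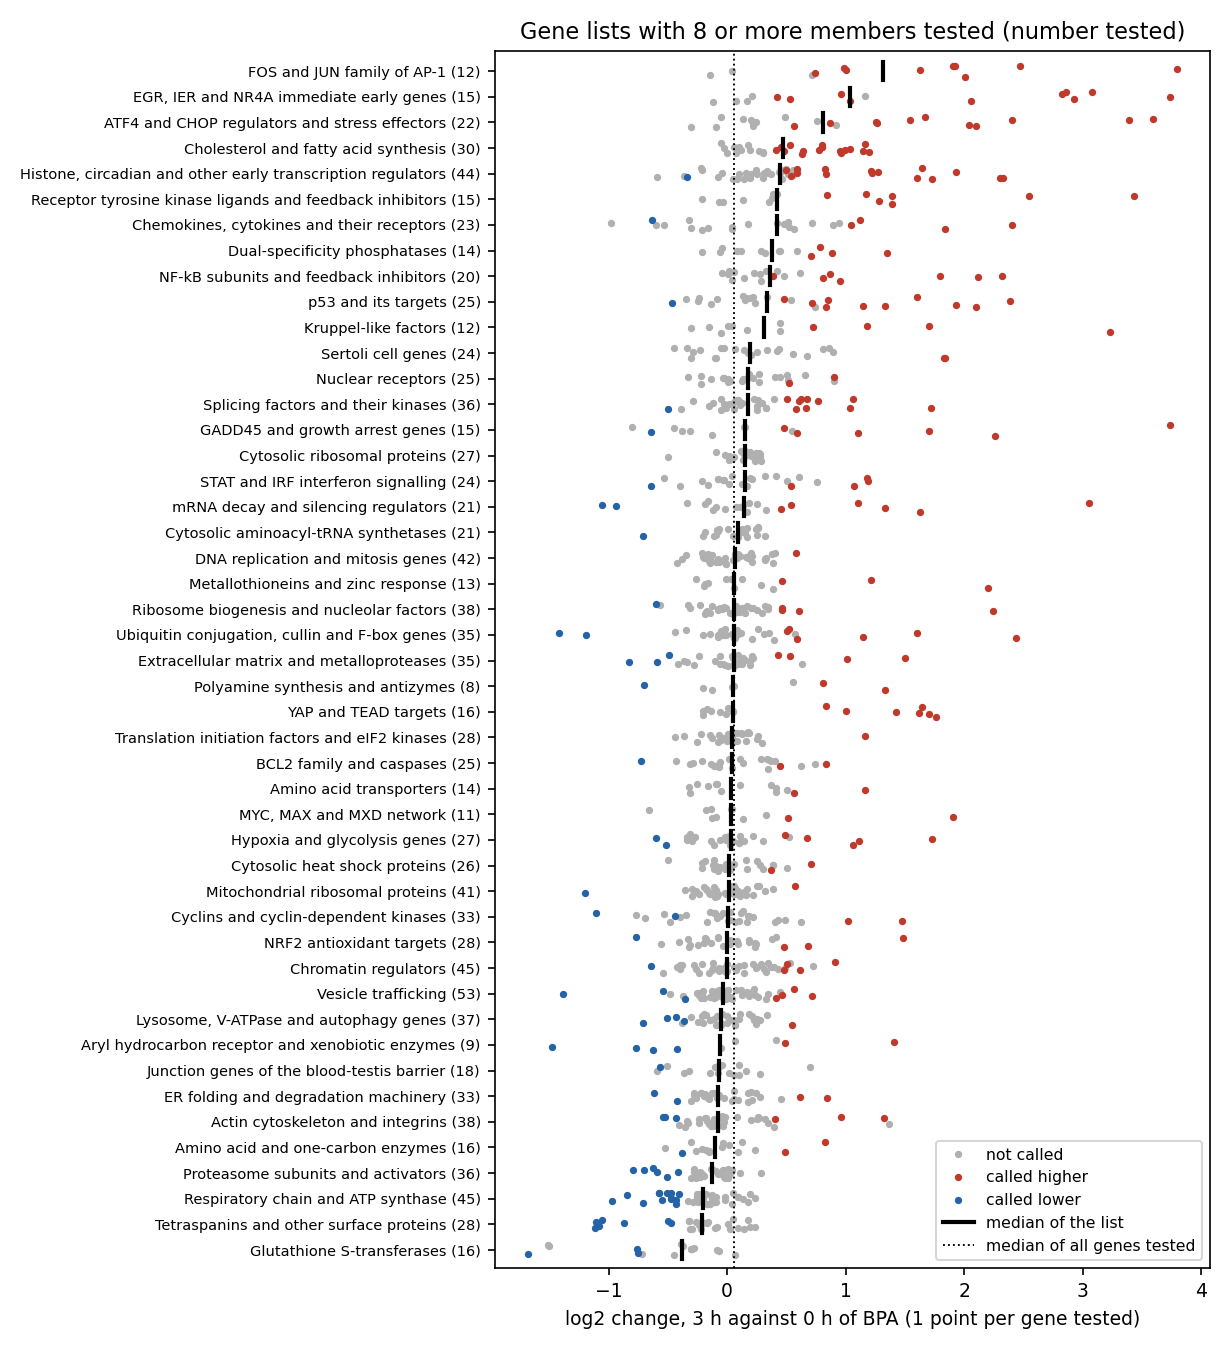
Log2 change from 0 h to 3 h of BPA for each tested member (1 point) of the gene lists with 8 or more members tested, ordered by the list's median (black bar), with called genes in red or blue; the dotted line is the median of all 8675 genes, 0.06. AP-1, EGR and ATF4 lists stand at the top with medians of 1.32, 1.04 and 0.81, and glutathione S-transferases at the bottom with -0.38.

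Kinases of splicing factors rose. Of 36 splicing genes 10 rose and 1 fell, with a median of 0.18; without either 0 h array 6 rose. All 4 CLK kinases, which phosphorylate SR proteins, were among the 10. Clk4 went from 298 and 235 to 858 and 928 (1.72 ± 0.14) and Clk2 by 1.04 ± 0.13, while the calls of Clk1 (0.77) and Clk3 (0.60) were lost without 0 h replicate 1 (adjusted p = 0.0603) and without 0 h replicate 1 (adjusted p = 0.0619), without 0 h replicate 2 (0.0884) and without 3 h replicate 2 (0.102). Tra2b, an activator of exon inclusion, rose by 0.68 ± 0.10. Srsf6 fell by 0.50, a call lost without the intensity trend (adjusted p = 0.0989), with a probe set of one transcript preferred (0.236), with the mean of all its probe sets (0.125), without 0 h replicate 1 (0.123), without 0 h replicate 2 (0.118) and without 3 h replicate 1 (0.167). Among the 25 genes that rose most were 2 long noncoding RNAs, which no list covers. Neat1, the scaffold of paraspeckles, went from 1442 and 1183 to 6554 and 5929 (2.25 ± 0.12) and Pvt1, a neighbour of Myc, from 212 and 248 to 1019 and 1105 (2.17 ± 0.18). With the mean of all its probe sets the change of Pvt1 was smaller, 0.997, and still called. Malat1, another long noncoding RNA, was not called (0.61 on the probe set used). Of 38 ribosome biogenesis genes 4 rose and 1 fell (13.2% called, against 12.1% of all genes), and no call held throughout. The largest, Taf1d, a factor of RNA polymerase I, read 131 and 137 and 770.1 and 570.1 (2.24) with the probe set used. Its call was lost with a probe set of one transcript preferred (adjusted p = 0.316) and with the mean of all its probe sets (0.409), and its 5 probe sets gave changes from -1.12 to 2.24. By limma 0 of 27 cytosolic ribosomal protein genes were called, at a median of 0.15, and 3 were higher at an unadjusted p under 0.05.

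Of 35 ubiquitin system genes 6 rose and 2 fell (22.9% called, against 12.1% of all genes), with a median of 0.06 as over all genes. Siah2, a RING ligase, rose from 147 and 112 to 855 and 627 (2.44 ± 0.18). The falls were both in 1 complex, the SCF ligase of S phase entry. Skp1, its adaptor, went from 5807 and 5091 to 2070.5 and 1987 (-1.42 ± 0.11), and Skp2, its F-box subunit, from 819 and 726 to 313 and 356 (-1.19 ± 0.16). A second Skp1 probe set gave -1.44. The scaffold Cul1 (-0.01) was not called. Slc20a1, a phosphate importer, was a further large rise, from 504 and 408 to 2187 and 1973 (2.18 ± 0.13).

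Among hypoxia and glycolysis genes 5 of 27 rose and 2 fell (25.9% called, against 12.1% of all genes). Vegfa, the vascular growth factor, rose from 152 and 185 to 670 and 494 (1.73 ± 0.16), and Ndrg1, a stress and hypoxia gene, from 722 and 563 to 1326 and 1453 (1.11 ± 0.13). The 5 other calls of this list were each lost in at least 1 alternative. Hif1a (0.10) and the glucose transporter Slc2a1 (0.14) were not called.

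Surface protein genes were the list with most falls held in all alternatives, 5. Like the other lists, this one was drawn up with results of these data known, here its falls, so its direction is not independent evidence. Of 28 tetraspanin and other surface genes none rose and 7 fell, with a median of -0.21, and 5 or 6 fell without each array in turn. Cd9, a tetraspanin, went from 1374 and 1328 to 709.6 and 543 (-1.11 ± 0.15) and Tm4sf1 from 8813 and 8779.5 to 4193 and 4244 (-1.06 ± 0.12). Cd24a, a lipid-anchored glycoprotein, went from 4448 and 4698 to 2040.3 and 2213 (-1.10 ± 0.13). Lgals9, a galectin that binds surface sugars, fell by 1.08 ± 0.13 and Emp3, a small membrane protein gene, by 0.87 ± 0.10. The surface genes Cd44 (-0.17), Cd47 (-0.16) and Lgals3 (-0.10) were not called. In the matrix list Adamts1, a secreted protease, rose from 667 and 664 to 1939.9 and 1862 (1.50 ± 0.16) and Timp1, an inhibitor of metalloproteases, fell from 1297 and 1256 to 766 and 668 (-0.83 ± 0.12). The 5 other calls among the 35 matrix genes were each lost in an alternative, and no collagen gene was called. The share of this list called was 20.0%, against 12.1% of all genes.

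**Figure D4:**
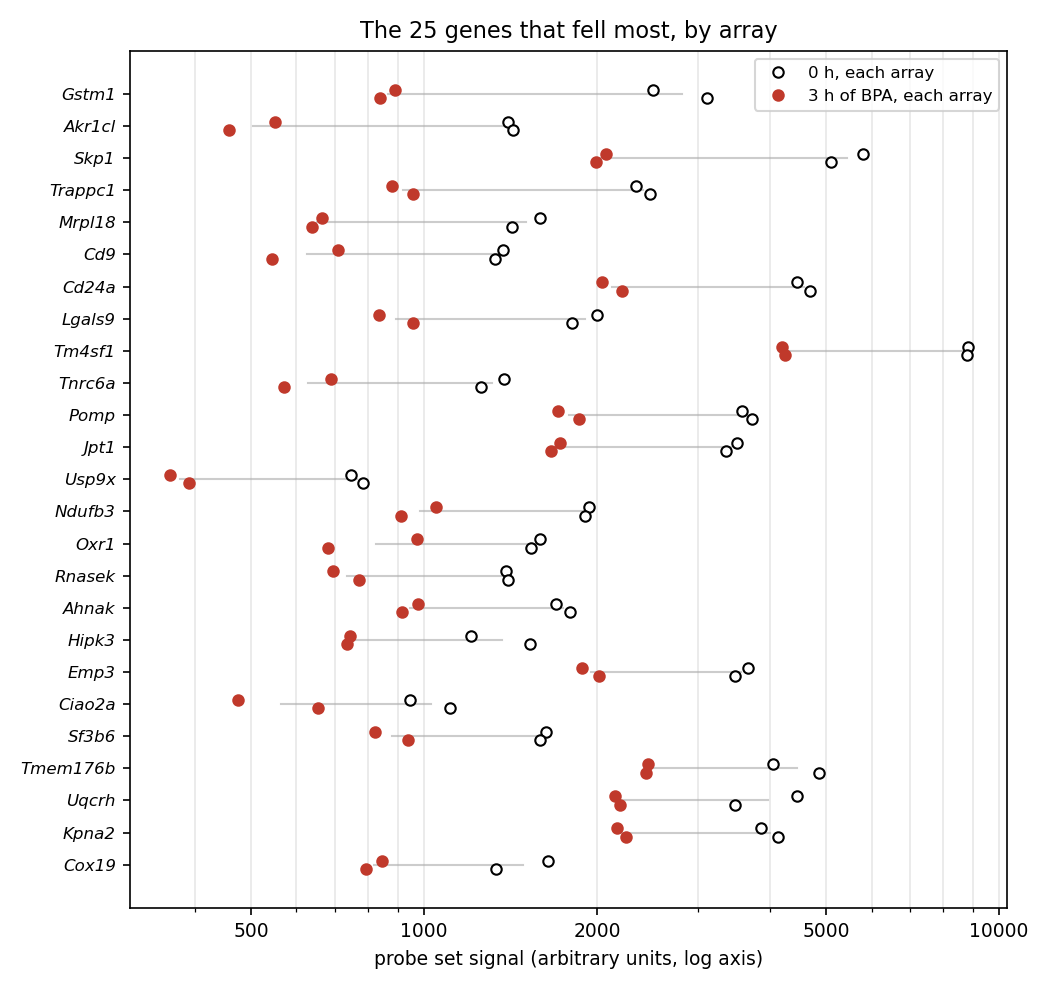
Signal of each array (horizontal, log axis, arbitrary units) at 0 h (open) and after 3 h of BPA (red) for the 25 genes that fell most among called genes above the median signal; grey lines join the means of 2 arrays. In every row both 3 h arrays lie below both 0 h arrays, as the choice required, and the changes run from -1.68 (Gstm1) to -0.85 (Cox19).

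The respiratory chain and the proteasome held small called falls and no called rise. Of 45 respiratory chain and ATP synthase genes none rose and 13 fell, with a median of -0.20. The count depended on the arrays: 4, 6, 7 and 7 genes fell without 0 h replicate 1, 0 h replicate 2, 3 h replicate 1 and 3 h replicate 2. Ndufb3, a complex I subunit, went from 1938 and 1908 to 1051 and 913 (-0.97 ± 0.12). Sdhc and Sdhd, the membrane anchors of complex II, went from 1796 and 1706 to 979.7 and 966 (-0.84 ± 0.14) and from 1983 and 2074 to 1232 and 1245 (-0.71 ± 0.12). The catalytic subunits Sdha (-0.16) and Sdhb (-0.20) were not called. Outside the list, Uqcrh, a complex III hinge protein, fell by 0.86 ± 0.14 and Cox19, an assembly factor of complex IV, by 0.85 ± 0.13.

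Of 36 proteasome genes none rose and 6 fell, with a median of -0.13; without either 0 h array or 3 h replicate 1 the count was 3. Psmd13 (-0.79 ± 0.14) and Psma2 (-0.70 ± 0.10), of the lid and the core, held. Pomp, the chaperone that assembles the core and is not a list member, went from 3567 and 3720.3 to 1708 and 1861 (-1.03 ± 0.11). In mitochondrial ribosomes 1 of 41 genes rose and 1 fell (4.88% called, against 12.1% of all genes). The fall was Mrpl18, from 1592 and 1421 to 665 and 638 (-1.20 ± 0.17). Of 53 trafficking genes 4 rose and 3 fell, a share of 13.2%, near that of all genes. The largest of these changes was that of Trappc1, a vesicle tether, from 2335 and 2467 to 879 and 957 (-1.38 ± 0.14). It alone among the 7 held in all alternatives. Of 37 lysosome and autophagy genes 1 rose and 4 fell, again a share near that of all genes (13.5%), and no call held throughout.

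Other genes that fell most were Jpt1 (-1.01 ± 0.11), the deubiquitinase gene Usp9x (-1.01 ± 0.13), Rnasek (-0.92 ± 0.12), Tmem176b (-0.86 ± 0.12) and Kpna2, an importin (-0.85 ± 0.10). The remaining 5 calls among the 25 were less firm. Oxr1 (-0.94) was lost without the intensity trend (adjusted p = 0.0625), without 0 h replicate 1 (0.0561) and without 3 h replicate 2 (0.0703). Hipk3 (-0.87) was lost without the intensity trend (adjusted p = 0.113), without 0 h replicate 2 (0.179), without 3 h replicate 1 (0.0875) and without 3 h replicate 2 (0.0885). Ciao2a (-0.87) was lost without the intensity trend (adjusted p = 0.0594), without 0 h replicate 2 (0.0941) and without 3 h replicate 1 (0.0932). Sf3b6 (-0.87) was lost with the mean of all its probe sets (adjusted p = 0.12). Ahnak (-0.88) was lost with the mean of all its probe sets (adjusted p = 0.783), where its 3 other probe sets had signals of at most 36.2.

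Of 24 genes of Sertoli cell identity tested, 2 rose, Lif and Sox9, and none fell, with a median of 0.19. The share called was 8.33%, against 12.1% of all genes, and 13 more genes were removed by the filter. Sox9, the factor that specifies Sertoli cells, read 26.2 and 60.9 at 0 h and 182 and 148 at 3 h (1.83 ± 0.36), and a second probe set gave 1.12. Its 0 h signal of 26.2 lay under 47.6, the lowest mean signal the filter kept. Its call was lost without 0 h replicate 1 (adjusted p = 0.0558) and without 3 h replicate 1 (0.0536). Of 18 junction genes of the blood-testis barrier 1 was called, the cadherin gene Cdh2 (-0.56), which was lost in 8 of the 15 alternatives, among them without each of 0 h replicate 1, 0 h replicate 2, 3 h replicate 1 and 3 h replicate 2 (adjusted p = 0.0652, 0.341, 0.138 and 0.182). The share of the junction list called was thus 5.56%. The barrier genes Cldn11, Cldn3 and Ocln were removed by the filter.

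Signals of the later arrays of the same genes are given beside these as values with no test, since the comparisons share the 0 h arrays. Ccn2 read 1959 and 1596 at 0 h, 5756 and 5343 at 3 h, 1977 and 1673 at 6 h and 519 and 484 at 12 h. Nr4a1 read 1834 and 1734 at 3 h, 943 and 810.5 at 6 h and 442 and 446 at 12 h. Errfi1 read 4681 and 4496, 2425 and 2514 and 1829.7 and 1811 at these times. In these 3 genes, as in Ankrd1, Dusp6 and Klf6, the 3 h arrays were the highest of the 8. Fos read 2440.4 and 2596 at 3 h, 2881 and 2674 at 6 h and 1241 and 1341 at 12 h, highest on the 6 h arrays. Ddit3 read 6739 and 7085 at 6 h and 10492 and 9117 at 12 h, and Gadd45a 1568 and 1743 and 2011 and 2205, so that in both genes the 3 h arrays lay between those of 0 h and of 6 h.

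**Figure D5:**
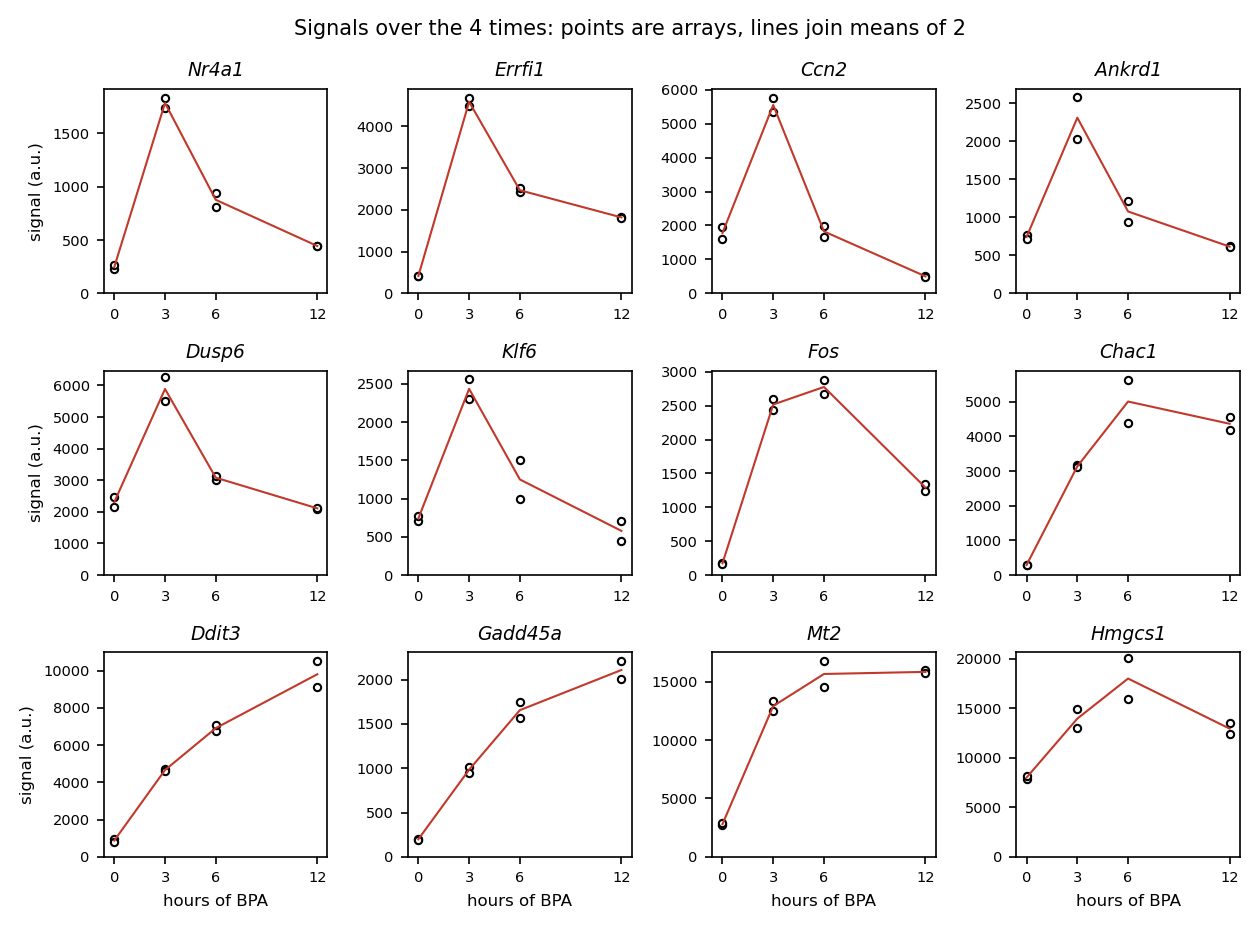
Signal (vertical, arbitrary units, from 0) against hours of BPA (horizontal) for 12 genes; points are the 2 arrays of each time and red lines join their means. Nr4a1, Errfi1, Ccn2, Ankrd1, Dusp6 and Klf6 are highest at 3 h, while Ddit3 and Gadd45a are higher at each later time shown.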

How the data were processed

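The authors deposited, for each array, a linear intensity for every probe set. The software that summarised it is not given in the sources used here. Judged by the values, arrays were scaled to a common mean of 500.16 to 500.18 after trimming 2% at each end, so an overall rise or fall of RNA would not show. Symbols came from the platform annotation, of which 20351 probe sets were updated by Entrez ID to the RefSeq gene table (GRCm38.p6) and 29 kept as annotated; 64 control probe sets, 691 with several symbols and 1555 with none were left out. Probe sets that can bind several transcripts (suffix _s_at or _x_at) read 103 of the 1048 called genes.

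Signals became log2(signal + 7.9), where 7.9 was the 10th percentile of all signals, and genes above the 30th percentile of mean log2 signal were tested. A model with 1 mean per time over 8 arrays was fitted in limma 3.58.1 (R 4.3.3; lmFit, eBayes with an intensity trend; two-sided; 4 residual and 9 prior degrees of freedom). On simulated data for this comparison (8675 genes, 200 changed in each of 10 runs) the test found 80% of the genes changed 2-fold and 95.7% of those changed 4-fold, with 6.54% false calls. The simulation drew independent normal noise with the spread that the model itself fitted, and changes under 2-fold were not simulated. It does not cover most calls, since called genes had median absolute changes of 0.76 (higher) and 0.6 (lower). Replicate arrays correlated at 0.984 at 0 h and 0.98 at 3 h across genes. Genes and the 52 lists were chosen with earlier results of these data known. Named genes are those with the 25 largest rises and the 25 largest falls among calls above the median signal whose arrays did not overlap, and in each list up to 8 called members, called members of the minority direction, the first 3 tested members and members removed by the filter. Further uncalled list members were chosen after their values were seen, as were the genes named for their later signals. Alternatives were quantile normalization, a common median, offsets of 1.975 and 31.6, the filter dropped or set at the 50th percentile, no trend, the 4 arrays alone, the replicate number as a block, a probe set of one transcript preferred, the mean of all probe sets, and each of the 4 arrays left out.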

Additional observations from a re-analysis of the deposited data

How the results depend on the processing

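The 1048 calls became 611 without the intensity trend and 453 to 551 with 1 array left out, and stayed within 1.5 times under the other alternatives. Genes called higher (742) were 464 at a common median, 469 without the trend and 364 to 410 with 1 array left out. Genes called lower (306) were 643 at a common median, 142 without the trend, 485 with only the 4 arrays compared and 89 to 141 with 1 array left out. The 241 genes called and at least 2-fold kept within 1.5 times under every alternative run. Of the 50 genes that rose or fell most, 43 kept their call throughout. Taf1d was -0.82 with a probe set of one transcript preferred and Ahnak 0.21 as the mean of all probe sets, both reversed. With the replicate number as a block, 1350 genes were called, 924 higher and 426 lower, 251 of them at least 2-fold. The numbers did not pair the arrays: deviations of same-numbered 0 h and 3 h arrays correlated at 0.017 across genes, and over all pairs of times between -0.011 and 0.122. With 2 arrays per time, a gene whose signal is near the background cannot be followed, and 3718 genes were left untested for that reason.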

Other observations

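Zinc finger genes named Zfp and a number were chosen as a family after their values were seen, so their counts are a description with no test. Of 148 tested (173 measured) 44 were called higher and 2 lower, with a median change of 0.48 against 0.06 over all genes, where 8.55% were called higher and 3.53% lower. Within each of 4 signal groups the median of the family was between 0.43 and 0.53, and at a common median it was 0.35 with 38 higher and 3 lower. Leaving out 1 array left 27 to 32 higher and 1 lower, with 28 higher without 0 h replicate 1 and 27 without 3 h replicate 2. The family mixes DNA-binding factors of many fingers with RNA-binding proteins such as Zfp36. Among the former, Zfp707 read 143 and 114 at 0 h and 363 and 428 at 3 h (1.57 ± 0.16), Zfp113 read 141 and 134 and 399 and 366 (1.43 ± 0.17), and Zfp623 read 440.2 and 436 and 1180.1 and 979 (1.28 ± 0.13). In all 3 both 3 h arrays were above both 0 h arrays, and their calls held in all 15 alternatives wherever they were tested. The 2 lower genes were Zfp704 (-0.80), whose call was lost without the filter (adjusted p = 0.0997), without 0 h replicate 1 (0.176), without 0 h replicate 2 (0.202), without 3 h replicate 1 (0.168) and without 3 h replicate 2 (0.139), and Zfp106 (-0.78), whose call was lost with the mean of all its probe sets (adjusted p = 0.194).

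Host genes of small nucleolar RNAs, also chosen after their values were seen, had 3 of 4 tested Snhg genes called higher. Snhg5 read 452 and 425 at 0 h and 1262 and 1159 at 3 h (1.45 ± 0.12), a call that held in all alternatives. Snhg1 read 1169 and 1012 and 3249.6 and 2972 (1.51 ± 0.12), and its call was lost with the mean of all its probe sets (adjusted p = 0.226). Snhg6 had a change of 0.39, and its call was lost at a common median (adjusted p = 0.167), without the intensity trend (0.113), without 0 h replicate 1 (0.173), without 0 h replicate 2 (0.175), without 3 h replicate 1 (0.154) and without 3 h replicate 2 (0.152). Malat1, a long noncoding RNA read by 5 probe sets, had changes from -0.35 to 0.61 on them.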
